A study of Mus musculus with 11 samples.

Results

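The 80 nuclear-encoded subunits of the oxidative phosphorylation (OXPHOS) complexes were compared between regulatory T cells (Tregs) of spleen and tumor-infiltrating Tregs (TI-Tregs). They were chosen by gene symbol alone: all listed symbols of the Nduf subunit series, Sdha to Sdhd, the Uqcr series, the Cox4 to Cox8 series and the Atp5 series. This gave 80 of 14604 listed genes, of which 36 belong to complex I, 4 to complex II, 8 to complex III, 15 to complex IV and 17 to complex V. Cyc1 and Ndufab1 also encode subunits, but their symbols fall outside the rule and they are given with the carriers. Ndufb4c, matched by its symbol, is annotated as a processed pseudogene and is nearly identical to Ndufb4.

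Tregs were sorted as live CD4+ GITR+ CD25+ cells from MC38 tumors, grafts of a mouse colon adenocarcinoma line, and from spleens of the mice that bore these tumors. The 11 RNA libraries, depleted of ribosomal RNA, fall into 3 of spleen and 3 of tumor from wild-type mice, labelled CD177flox/flox, and 3 of spleen and 2 of tumor from knockout mice, labelled CD177flox/flox/FOXP3-CreYFP. All of these mice therefore carried floxed Cd177 alleles, and in the knockout a Cre under the Foxp3 promoter removes the gene in Tregs. An age is given for the C57BL/6 hosts of MC38 grafts in general but not for these genotypes. Cd177 was not analysed here, so the genotype labels were not checked from its level. The labels do not say which spleen and tumor libraries share a mouse, and the fit treats the 11 libraries as independent. Nor do they say which came from separate mice, so p-values measure only the spread between these libraries, which may be partly technical.

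Oxidative phosphorylation takes place in the inner mitochondrial membrane. Complex I oxidizes NADH and complex II oxidizes succinate, complex III passes the electrons from ubiquinol to cytochrome c, and complex IV passes them to oxygen. Complexes I, III and IV pump protons, and complex V uses the proton gradient to make ATP. Most subunits are encoded in the nucleus, while a small set in complexes I, III, IV and V is encoded in mitochondrial DNA. T cells draw on this system beside glycolysis, and Tregs are known for their use of mitochondrial respiration.

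Values are the deposited log2(n + 1), where n is the gene-level estimate of the authors, whose scaling is not stated. Differences are tumor minus spleen on this scale, so a difference of 1 is a 2-fold change for a well expressed gene and more than that for a gene near 0. Levels are not compared between genes, since it is not known whether n is per transcript length. Taken back to n, library totals were 712832 to 844331 in spleen and 1103159 to 1304548 in tumor. These totals lie far below the approximate sequencing depth the methods state, so the reads behind each value are not known and no counting error can be given. One annotated processed pseudogene, Gm12896, held 31.4 to 42.4% of n in each library. Over 13897 tested genes the median difference was 0.08 as deposited and -0.44 with equal library totals, so directions of small differences depend on the scaling.

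Libraries of TI-Tregs had higher levels of nearly all OXPHOS subunits than those of spleen Tregs. By limma with Benjamini-Hochberg adjustment over 13897 genes, 77 of 80 members were higher in the 5 tumor than in the 6 spleen libraries, 1 was lower and 2 did not pass an adjusted p of 0.05. Of all tested genes, 43.1% were called higher and 35.9% lower. The members' median difference was 1.04, beside 0.08 over all tested genes, and 19.5% of all tested genes had a difference above the members' median. In 73 members every tumor library lay above every spleen library and in 1 every tumor library lay below, against 35.2% and 28.4% of all tested genes. Scaled to equal library totals, the median was 0.43 over the members and -0.44 over all tested genes, with 57 members higher and 5 lower against 23.6% and 56.3% of all tested genes. In that scaling 13 members had a difference below 0. Taken as a share of n, the members together made up 0.54 to 0.67% of a spleen library and 0.74 to 0.86% of a tumor library. Without Gm12896 in the total, the shares were 0.94 to 0.97% and 1.26 to 1.34%.

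**Figure D1:**
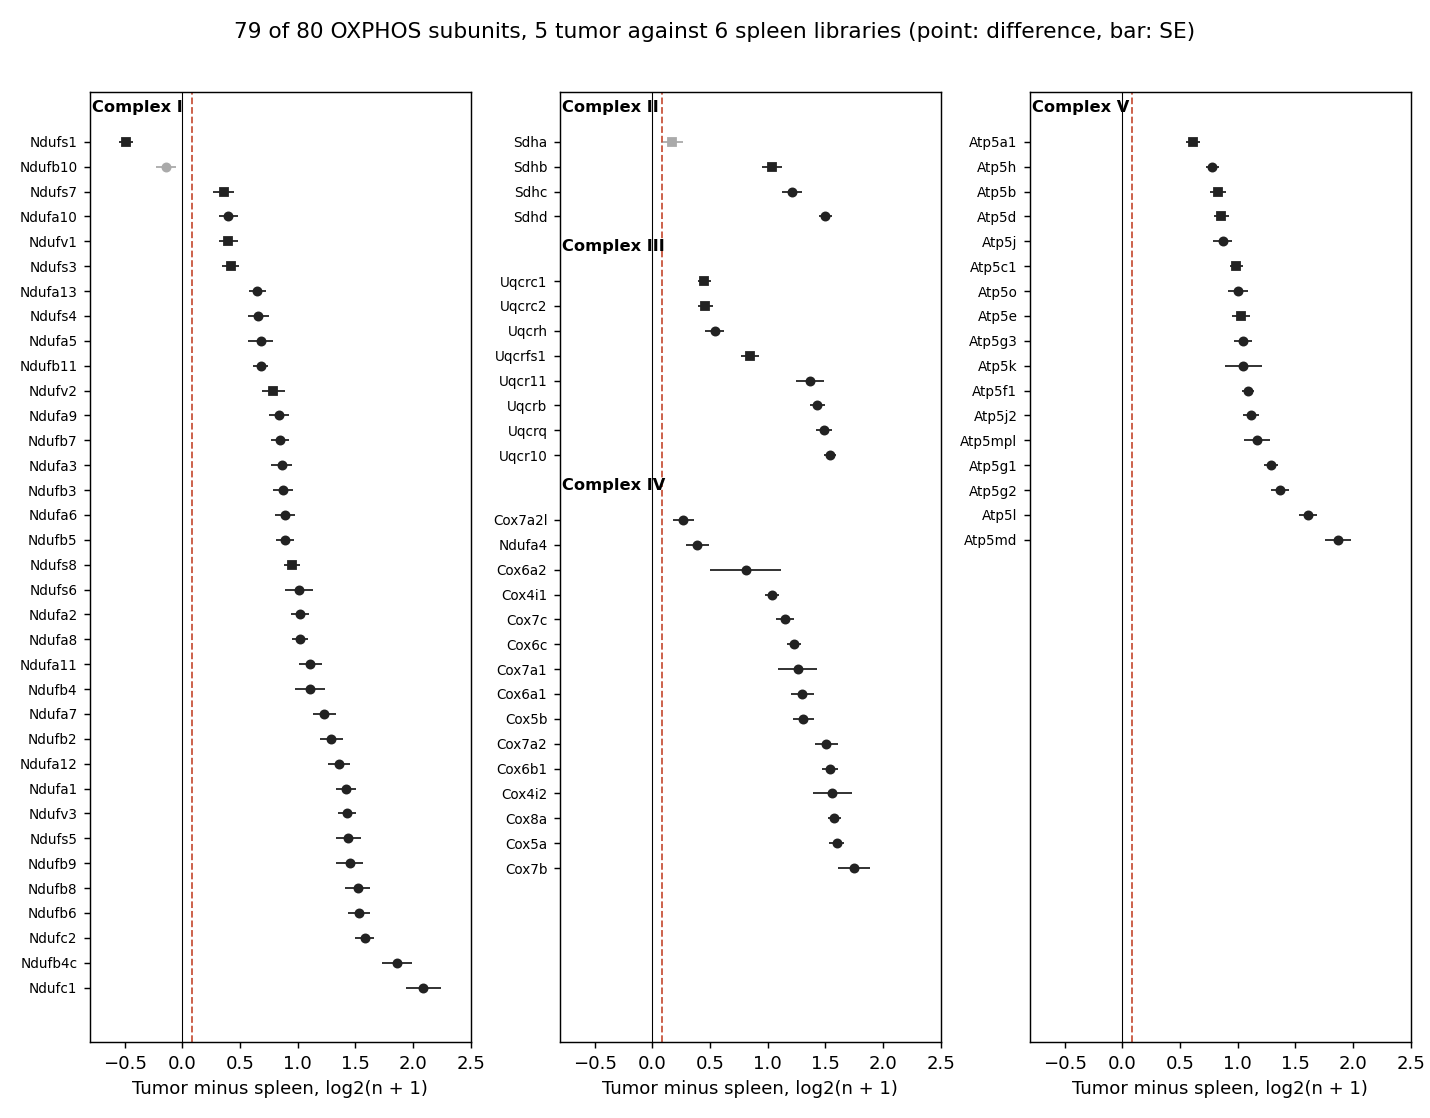
Difference of 79 of the 80 OXPHOS subunits, tumor minus spleen in log2(n + 1), by complex, with its standard error as a bar (5 tumor and 6 spleen libraries). Squares mark catalytic, core, Rieske and F1 subunits, grey marks members that did not pass, and the dashed line is the median of all tested genes, 0.08. Ndufs1 is the lowest at -0.49 and Ndufc1 the highest at 2.09. With equal library totals, not drawn here, 13 members are below 0.

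The sorted cells were checked against marker genes, because bulk RNA cannot tell fewer cells of a type from less RNA per cell. Of 13 Treg and T cell genes, all were listed, and 2 were higher and 8 lower in tumor, against 43.1% and 35.9% of all tested genes. Their summed level was 11.52 to 11.69 in spleen and 10.94 to 11.65 in tumor. All 14 myeloid markers were higher in tumor, with a summed level of 8.32 to 9.25 in spleen and 13.67 to 14.21 in tumor. All 5 listed fibroblast markers were higher, from 1.88 to 2.44 up to 9.2 to 10.36, and Col3a1 and Pdgfrb were below 0.5 in each spleen library. Of 7 CD8 T and NK cell markers, 5 were higher and 1 lower, with sums of 4.45 to 5.66 and 7.66 to 8.88. Of 5 listed B cell markers 1 was higher and 4 lower, and the sums were 7.44 to 8.55 and 4.98 to 6.25. Of 7 erythroid and platelet markers 1 was higher and 6 lower, with overlapping sums of 7.17 to 10.06 and 8.08 to 9.29. Of 4 listed epithelial markers, 3 were tested, with 1 higher and 1 lower and sums of 2.23 to 2.67 and 3.89 to 4.72, and Krt18 was below 0.5 in each library. Spleen knockout replicate 2 had the highest B cell and CD8 T and NK cell sums of the spleen libraries. Its myeloid sum of 9.25 was also the highest there, close to 9.2 in spleen wild-type replicate 1. Without spleen knockout replicate 2, 77 members were higher and 1 lower. The myeloid and fibroblast markers move with tissue as the OXPHOS subunits do, and their part in the results was not tested.

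The rise was seen in every complex. The median difference was 0.92 in complex I, 1.12 in complex II, 1.11 in complex III, 1.3 in complex IV and 1.05 in complex V. All members of complexes III, IV and V passed as higher, as did 34 of 36 in complex I and 3 of 4 in complex II. The share called higher over all tested genes was 43.1%. By library, the median level of the complex I subunits was 4.99 to 5.14 in spleen and 5.95 to 6.16 in tumor. That of complex IV was 5.85 to 6.22 in spleen and 7.28 to 7.53 in tumor, and that of complex V was 6 to 6.24 and 7.27 to 7.46. For each of the 5 complexes the tumor libraries lay above the spleen libraries. Wild-type and knockout libraries were mixed within each tissue, except for complex I in spleen. There the knockout libraries were at 5.06 to 5.14 and the wild-type libraries at 4.99 to 5.06. Scaled to equal totals, the medians of complexes I to V were 0.31, 0.5, 0.5, 0.69 and 0.42.

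**Figure D2:**
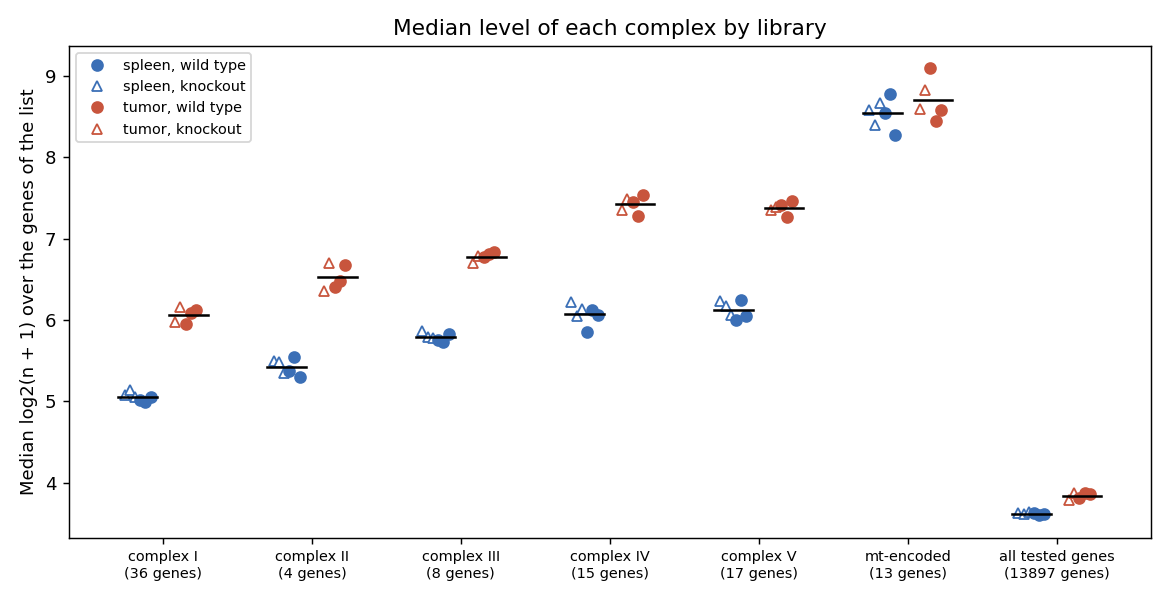
Median log2(n + 1) over the genes of each complex, of the mitochondrially encoded subunits and of all tested genes, in each library, with the tissue mean as a line. Tumor libraries lie above spleen libraries in each of the 5 complexes, while the mitochondrially encoded subunits overlap at 8.27 to 8.78 in spleen and 8.44 to 9.09 in tumor.

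Complex I holds the only member that fell. Ndufs1, the large iron-sulfur subunit of its peripheral arm, had a lowest, median and highest level of 5.63, 5.75 and 5.88 in spleen. In tumor it was 5.27, 5.34 and 5.22 in the wild-type and 5.31 and 5.16 in the knockout libraries. All 5 tumor libraries lay below all 6 spleen libraries, with a mean of 5.75 ± 0.1 (SD, n = 6) against 5.26 ± 0.07 (SD, n = 5). The difference was -0.49 with a standard error of 0.062, with an adjusted p of 8.29e-06 by limma. It was below 0 in all alternatives run, -1.11 with equal library totals and -0.52 when libraries were centred by transcript length. Ndufs1 is read from the minus strand of chromosome 1 (63143596 to 63176833, build GRCm38, also called mm10). Its annotated exons share bases with exons of Eef1b2 and Ino80dos on the other strand. The library kit's strand setting in the pseudoalignment is not given in the sources used here, so reads of such overlaps cannot be told apart.

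The other catalytic core subunits of complex I rose by less than most of its accessory subunits. The 7 nuclear-encoded core subunits, which carry the flavin and iron-sulfur clusters and line the ubiquinone site, had a median difference of 0.42, with 6 higher and 1 lower. The 28 accessory subunits, which surround and stabilize the core, had a median of 1.02, with 27 higher and 1 not passing. The shares over all tested genes were 43.1% higher and 35.9% lower. Ndufv1, the NADH-binding flavoprotein, differed by 0.4 (SE 0.082, adjusted p 0.000637 by limma). Ndufs7, which lies near the ubiquinone site, differed by 0.36. Ndufs3 differed by 0.42, and the iron-sulfur subunits Ndufv2 and Ndufs8 by 0.79 and 0.95. With equal library totals the core had a median of -0.19 and the accessory subunits 0.41, and Ndufv1, Ndufs7 and Ndufs3 turned to -0.22, -0.26 and -0.19 without passing. Only Ndufs8 of the core was then called higher and only Ndufs1 lower, against 23.6% and 56.3% of all tested genes. When Gm12896 was also left out of the totals, a setting chosen after seeing the data, all 3 passed as lower (adjusted p 0.0251, 0.0188 and 0.0243 by limma).

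**Figure D3:**
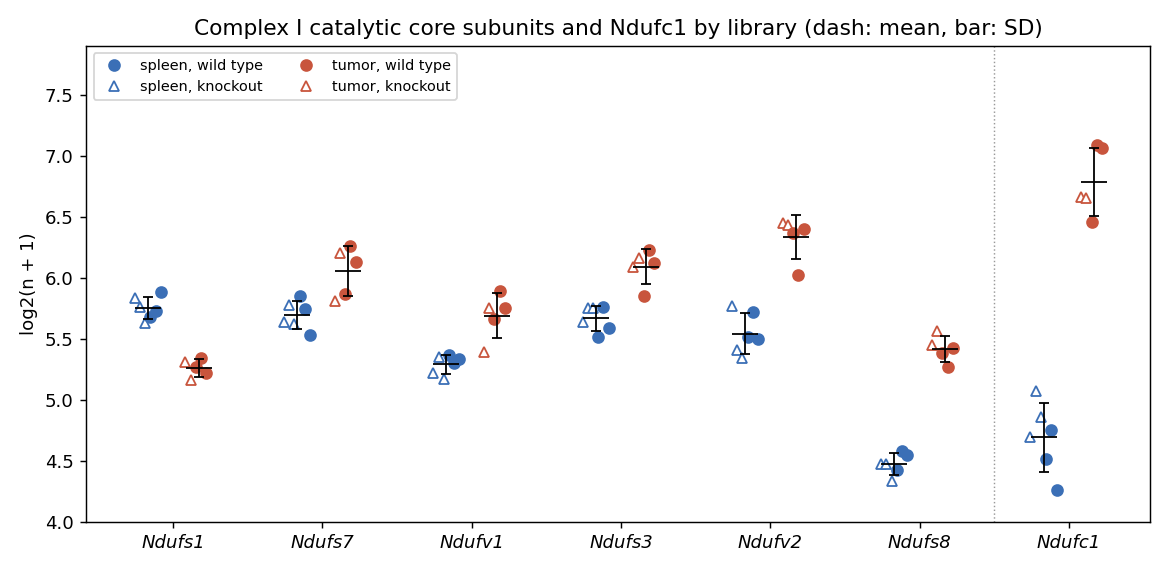
Level in log2(n + 1) of 6 of the 7 catalytic core subunits of complex I and of Ndufc1 in each library, with the mean as a dash and the SD as a bar (6 spleen and 5 tumor libraries). Tumor lies below spleen for Ndufs1, overlaps it for Ndufs7 and lies above it for the others as deposited, with the widest gap at Ndufc1.

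Ndufc1, a small accessory subunit of the membrane arm, had the largest rise of all members. Its lowest, median and highest levels in spleen were 4.26, 4.72 and 5.07. In tumor it was 6.46, 7.09 and 7.06 in the wild-type and 6.66 and 6.65 in the knockout libraries, all above spleen. The difference was 2.09 (SE 0.15, adjusted p 3.83e-08 by limma), which ranks 1052 among 13897 genes. Within complex I, Ndufb4c followed with 1.86, and Ndufb4, whose reads the authors' counting could split with that near copy, had 1.11. Summed, the level of the Ndufb4 pair rose from 4.8 ± 0.24 (SD, n = 6) in the spleen libraries to 6.51 ± 0.13 (SD, n = 5) in those of tumors, by 1.71. Ndufc2, Ndufb6 and Ndufb8, further accessory subunits of the membrane arm, differed by 1.58, 1.53 and 1.52.

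Ndufb10, another membrane-arm accessory subunit, was the complex I member that did not pass. It was 5.81, 5.96 and 6.22 at its lowest, median and highest in spleen. In tumor it was 6.02, 5.98 and 5.75 in the wild-type and 5.71 and 5.85 in the knockout libraries. The tissues overlapped, and the difference was -0.14 (SE 0.086, adjusted p 0.145 by limma). Under each of the 5 scalings run it was lower and passed, from -0.36 with median centring to -0.76 with equal library totals.

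In complex II, the succinate dehydrogenase, the membrane anchors rose by more than the flavoprotein. Sdhd and Sdhc, which anchor the enzyme and bind ubiquinone, differed by 1.5 and 1.21, and the iron-sulfur protein Sdhb by 1.04. Sdhd was between 4.59 and 4.78 in the spleen libraries and between 6.12 and 6.25 in the tumor libraries. Sdha, which carries the flavin, was 6.34, 6.54 and 6.68 at its lowest, median and highest in spleen. In tumor Sdha was 6.65, 6.72 and 6.72 in the wild-type and 6.41 and 6.93 in the knockout libraries, overlapping with spleen. Its difference was 0.17 (SE 0.093, adjusted p 0.117 by limma), and it turned to -0.46 and passed as lower with equal library totals. Without tumor knockout replicate 1 it was 0.24 and passed as higher.

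In complex III the small subunits rose by more than the large core proteins. Uqcr10, a small subunit, had the smallest p of all members, with levels of 5.4 to 5.55 in spleen and 6.96 to 7.09 in tumor. Its difference was 1.54 (SE 0.051, adjusted p 5.53e-11 by limma). Uqcrq, Uqcrb and Uqcr11, also small, differed by 1.49, 1.43 and 1.37, and the hinge protein Uqcrh by 0.54. The core proteins Uqcrc1 and Uqcrc2 differed by 0.45 and 0.46, and turned to -0.17 and -0.16, not passing, with equal library totals. Uqcrc1 passed as lower, at -0.16, when Gm12896 was left out of the totals (adjusted p 0.0141 by limma). Uqcrh was lower by -0.23 with quantile normalization (adjusted p 0.0426 by limma). The Rieske iron-sulfur protein Uqcrfs1 differed by 0.85.

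Complex IV, cytochrome c oxidase, had the highest median of the 5 complexes. Cox7b, a small membrane subunit, had its largest rise, with 5, 5.45 and 5.77 at its lowest, median and highest in spleen. In tumor Cox7b was 7.15, 6.94 and 7.27 in the wild-type and 7.35 and 7.14 in the knockout libraries, a difference of 1.75 (SE 0.14, adjusted p 1.1e-07 by limma). Cox5a and Cox5b, on the matrix side, differed by 1.6 and 1.31, and Cox4i1, the major form of the regulatory subunit, by 1.04. Cox8a, Cox6b1 and Cox7a2 differed by 1.58, 1.54 and 1.51. Ndufa4, first described in complex I and now known as a complex IV subunit, differed by 0.39, and its tissues overlapped. It turned to -0.23, not passing, with equal library totals.

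The rule also takes in 3 isoforms of complex IV known for restricted expression. Cox4i2, the isoform of Cox4 known from lung and from low oxygen, was 0.22, 0.57 and 0.64 at its lowest, median and highest in spleen. In tumor it was 1.74, 1.63 and 2.05 in the wild-type and 2.2 and 2.71 in the knockout libraries, above all spleen libraries, with a difference of 1.56 (SE 0.17, adjusted p 2.76e-06 by limma). Cox7a1, the heart and muscle isoform, was 1.73 to 2.68 in spleen and 2.99 to 3.67 in tumor, a difference of 1.26. Cox6a2, also of heart and muscle, was 0.39 to 1.34 in spleen and 0.81 to 2.84 in tumor, and the tissues overlapped. Its difference of 0.81 (SE 0.31, adjusted p 0.0275 by limma) lost its call without spleen knockout replicate 1, spleen wild-type replicate 3 or tumor wild-type replicate 1 or 2, where it was 0.73, 0.77, 0.77 and 0.51. The call was also lost with equal library totals (0.48), also without Gm12896 in them (0.48), and with length centring (0.47). Median centring (0.59) and Bonferroni correction lost it too, while quantile normalization kept it at 0.77.

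Cox7a2l, a factor that joins complexes III and IV into supercomplexes, moved apart from its paralog Cox7a2. Within a library, where a common scaling largely cancels, Cox7a2l minus Cox7a2 was 1.99, 2.14 and 2.3 at its lowest, median and highest in spleen. In tumor it was 1.26, 0.78 and 0.55 in the wild-type and 1.04 and 0.91 in the knockout libraries. All tumor libraries lay below all spleen libraries, by -1.24 on average, with p = 0.0043 by an exact two-sided permutation test, the smallest it can give with 5 and 6 libraries, and 0.026 after adjustment over 6 pairs. Without tumor knockout replicate 1 or 2 or tumor wild-type replicate 1 or 3 it was -1.28, -1.24, -1.33 and -1.15. The adjusted exact permutation p was then 0.0571 each time, which does not pass. That is the smallest value 1 pair can reach by itself with a tumor library left out, so these cases could not decide whether the difference holds. Cox7a2 itself differed by 1.51. Cox7a2l differed by 0.27 (SE 0.088, adjusted p 0.0128 by limma) and turned to -0.35, passing as lower, with equal library totals. With the replicate number as a block it was 0.26 and lost its call (adjusted p 0.0659 by limma).

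None of the other 5 paralog pairs passed. Cox4i2 minus Cox4i1 was -6.86 in spleen (SD 0.22) and -6.33 in tumor (SD 0.44), a difference of 0.53 (exact permutation p = 0.0303, adjusted 0.0606). Its sign depends on the pseudocount, with 1.65 at 0.1 and -0.41 at 5. Atp5g3 minus Atp5g2 differed by -0.32 (exact permutation p = 0.026, adjusted 0.0606) and passed without spleen wild-type replicate 1, at -0.38. Cox6a2 minus Cox6a1, Cox7a1 minus Cox7a2 and Atp5g1 minus Atp5g2 differed by -0.49, -0.26 and -0.08. Leaving out each library in turn gave -0.77 to -0.23, -0.37 to -0.14 and -0.12 to -0.046, and Cox6a2 minus Cox6a1 passed without tumor wild-type replicate 2.

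In complex V, the ATP synthase, all 17 members were higher and none overlapped between tissues. Over all tested genes, 43.1% were called higher, and in 35.2% every tumor library lay above every spleen library. Atp5md, a small subunit linked to the pairing of ATP synthases, was 5.88, 6.18 and 6.39 at its lowest, median and highest in spleen. In tumor it was 7.74, 8.24 and 8.06 in the wild-type and 8.11 and 8.05 in the knockout libraries, a difference of 1.87 (SE 0.11, adjusted p 4.82e-09 by limma). The 5 membrane small subunits had a median of 1.17 and the 3 genes of the c ring, which encode the same mature protein, a median of 1.29. Of the c ring genes, Atp5g2, Atp5g1 and Atp5g3 differed by 1.37, 1.29 and 1.05. The 4 stalk subunits had a median of 0.93. The 5 subunits of the F1 head, where ATP is made, had a median of 0.86, with 0.83 for the catalytic Atp5b and 0.61 for Atp5a1. Neither passed with equal library totals, where Atp5b was 0.2 and Atp5a1 -0.01. When Gm12896 was also left out of the totals, a setting chosen after seeing the data, Atp5b passed as higher at 0.2 (adjusted p 0.018 by limma). Atp5a1 did not pass there (-0.01, adjusted p 0.881 by limma).

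Members with short transcripts rose by more than those with long ones. Over the 79 members with an annotated transcript, whose median lengths ran from 321.5 to 2900 bases, Spearman's rho between length and difference was -0.42, beside -0.09 over 13842 tested genes. These are descriptions across genes that share the same libraries. The 13 members under 500 bases had a median of 1.17, the 31 from 500 to 750 a median of 1.23, and the 14 of 1500 or more a median of 0.63. Over all tested genes, the medians in the same classes were -0.08, 0.49 and 0.02. Ndufs1 and Sdha, with 2625.5 and 2900 bases, are among the longest, while Atp5g1 with 2675.5 bases rose by 1.29. When each library was centred within 20 classes of transcript length, a setting chosen after seeing the data, 71 members were higher and 2 lower, against 39.1% and 39.3% of all tested genes, and the members' median was 0.69. In that setting the complex I core had a median of 0.1 and its accessory subunits 0.68. The part of transcript length in these differences was not tested further.

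**Figure D4:**
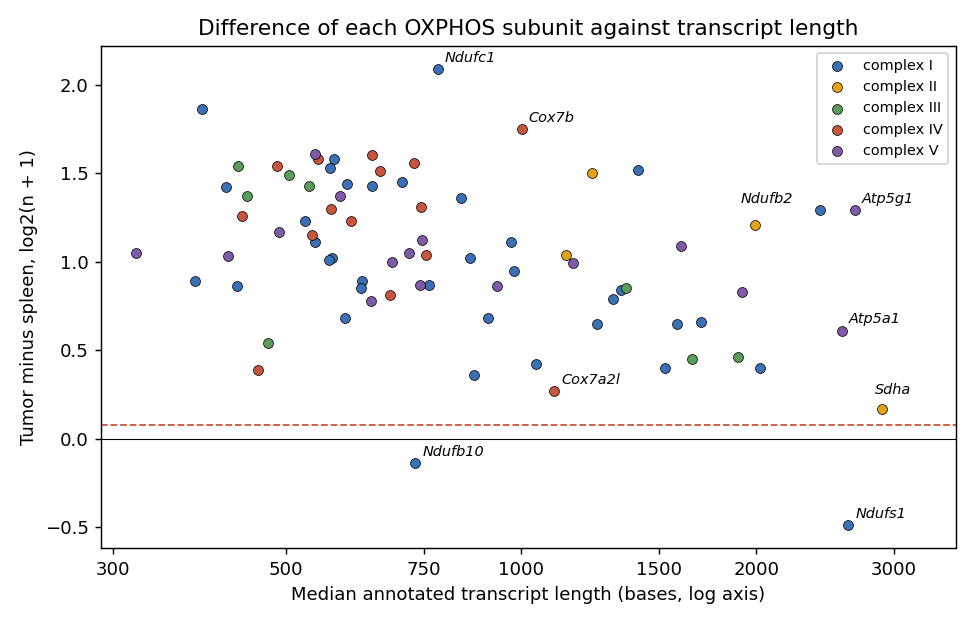
Difference of 79 OXPHOS subunits, tumor minus spleen in log2(n + 1), against the median length of their annotated transcripts on a log axis, coloured by complex. Most members of 1500 bases or more lie below 1, as do many of the shorter ones, Ndufb10 and Cox7a2l lowest among these, and the dashed line is the median of all tested genes, 0.08.

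Promoters of the members were searched for motifs of factors known to drive respiratory genes. Windows from 250 bases before to 50 after the start came from RefSeq on GRCm38.p6 and matched 65 of 80 members. NRF1, nuclear respiratory factor 1, binds a GC-rich motif made of GC followed by GCATGCGC, and these letters were in 5 of 65 members (7.7%), against 1.07% of 27025 genes and 2.21% of the 10843 genes of these that the expression table lists. The inner letters GCATGCGC alone, which lie within the full motif, were in 10 (15.4%), against 3.05% and 5.63%. The ETS motif CCGGAAG, bound by GABP, was in 17 (26.2%), against 9.93% and 18.95%. The YY1 motif, AAGATGG followed by CGGC, was in 4 (6.2%), against 0.75% and 1.64%. The cores of hypoxia response elements, ACGTG and GCGTG, were in 24.6% and 55.4% of members, against 21.78% and 35.15% of the 27025 genes and 28.38% and 53.84% of listed genes. Both strands were searched, and a match is a description of letters, not of binding.

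The 5 stretches of 30 bases with the full NRF1 motif are shown because this motif was several times more frequent among members than among all genes. They are written 5′ to 3′ on the strand of the gene, with the motif in capitals.
Atp5g2, chr15:102671070-102671099, minus strand: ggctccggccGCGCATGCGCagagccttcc
Atp5k, chr5:108434430-108434459, minus strand: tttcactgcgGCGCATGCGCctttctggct
Cox6a1, chr5:115349101-115349130, minus strand: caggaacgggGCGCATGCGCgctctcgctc
Ndufa11, chr17:56717692-56717721, plus strand: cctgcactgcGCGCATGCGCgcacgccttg
Uqcrc1, chr9:108936668-108936697, plus strand: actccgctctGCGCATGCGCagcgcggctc

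The motif began 42, 50, 162 and 60 bases before the annotated start of Atp5g2, Atp5k, Cox6a1 and Ndufa11 and at base 31 after that of Uqcrc1. Overlap of these stretches with annotated exons was not checked. The tumor minus spleen differences of these 5 genes were 1.37, 1.05, 1.3, 1.11 and 0.45. Their median was 1.11, beside 1.02 for the 60 matched members without the motif.

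The 4 stretches with the YY1 motif, again in capitals and on the strand of the gene, are shown because all 4 lie in complex I genes and begin within 36 bases after the start. Complex I holds 36 of the 80 members, and overlap of these stretches with annotated exons was not checked.
Ndufa9, chr6:126849096-126849125, minus strand: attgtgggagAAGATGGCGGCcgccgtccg
Ndufs4, chr13:114388045-114388074, minus strand: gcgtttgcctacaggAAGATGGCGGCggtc
Ndufs6, chr13:73328433-73328462, minus strand: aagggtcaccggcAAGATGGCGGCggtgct
Ndufs7, chr10:80249463-80249492, plus strand: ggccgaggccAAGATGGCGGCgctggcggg
These 4 genes differed by 0.84, 0.66, 1.01 and 0.36 between tissues, with a median of 0.75, beside 1.05 for the 61 matched members without it.

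Both hypoxia response cores were in 9 members, whose differences ran from 0.17 for Sdha to 1.6 for Cox5a. Cox5a, chosen after its values were seen, is shown as an example because its 250 bases before the start overlap no exon annotated on either strand. Each core, on either strand, is in capitals.
Cox5a, chr9:57520982-57521231, plus strand: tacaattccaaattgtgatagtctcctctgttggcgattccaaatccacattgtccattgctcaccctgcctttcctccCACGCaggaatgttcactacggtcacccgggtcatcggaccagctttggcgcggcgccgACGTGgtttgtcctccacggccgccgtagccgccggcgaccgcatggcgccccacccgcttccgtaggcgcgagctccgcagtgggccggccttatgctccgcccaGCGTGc
The 16 members with ACGTG had a median difference of 1.24 and the 49 without it 1.01. For GCGTG the medians were 1.03 in 36 members with it and 1.05 in 29 without.

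Within wild-type mice 76 of 80 members were higher in tumor and 1 lower, against 39.2% and 31.3% of all tested genes. Within knockout mice 74 were higher and 1 lower, against 36.2% and 29.5%. In 74 members the rise passed in both genotypes, Ndufs1 fell in both, and all 80 had the same sign in both. Ndufs1 differed by -0.49 in wild-type and -0.51 in knockout mice. Ndufb10, Sdha and Cox7a2l passed in neither, and Cox6a2 and Ndufs7 did not pass in knockout mice.

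No member differed between genotypes past the threshold. For the interaction of tissue and genotype, 0 of 80 members and 0 of 13897 genes (0.0%) were called, and 0 members had an unadjusted limma p below 0.05, against 2.76% of all tested genes. The members' interaction estimates ran from -0.61 for Cox6a2 to 0.6 for Cox7a1, and the smallest unadjusted p was 0.055, for Ndufc1 at -0.58 (SE 0.27). In spleen, knockout minus wild type ran from -0.45 for Atp5k to 0.37 for Ndufc1, with 0 members and 0.0% of all genes called and 2 members (2.5%) with an unadjusted limma p below 0.05, against 2.02% of all tested genes. Atp5k, subunit e of ATP synthase, was 4.33, 4.36 and 4.62 in the wild-type and 3.84, 4.01 and 4.1 in the knockout spleen libraries. These did not overlap, but the unadjusted p was 0.0195 and the adjusted p 1 by limma.

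In tumor, knockout minus wild type ran from -0.47 for Cox6a2 to 0.65 for Cox4i2, with 0 members and 0.0072% of all genes called. For 3 members (3.75%) the unadjusted limma p was below 0.05, against 4.56% of all tested genes. Cox4i2 was 1.74, 1.63 and 2.05 in the 3 wild-type and 2.2 and 2.71 in the 2 knockout libraries, with an unadjusted p of 0.00948 and an adjusted p of 1 by limma. The members' median difference was 0.04 in spleen and -0.03 in tumor, and over all genes it was 0.006 and -0.012.

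The 13 subunits encoded in mitochondrial DNA did not move as a block with the nuclear subunits. Their median difference was 0.15, with 5 higher, 1 lower and 7 not passing, while 43.1% of all tested genes were higher and 35.9% lower. The complex IV subunits mt-Co3, mt-Co2 and mt-Co1 were higher by 0.93, 0.86 and 0.66, the complex V subunit mt-Atp6 by 0.8 and the complex I subunit mt-Nd1 by 0.59. The complex I subunit mt-Nd4l was lower by -0.95, with 8.03 to 8.51 in spleen and 6.95 to 7.79 in tumor. Among those that did not pass, mt-Cytb of complex III differed by 0.1, mt-Nd3 by 0.18, mt-Nd5 by 0.15, mt-Nd4 by 0.07 and mt-Nd2 by -0.02. mt-Nd6, read from the other strand, differed by -0.1 and mt-Atp8 by -0.04. Of the 13, 0 were higher and 8 lower with equal library totals, against 23.6% and 56.3% of all tested genes, and their median was -0.47. These transcripts lie on 1 short genome with adjoining and partly overlapping genes, and copies of mitochondrial DNA in the nucleus are not separated here.

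As deposited, the lists of genes that act beside the complexes had medians nearer 0 than the subunits, except glycolysis. Of all tested genes 43.1% were higher and 35.9% lower. Of 11 carriers and ATP exchange genes 9 were higher and 0 lower, with a median of 0.64. Atpif1, the inhibitor of ATP synthase, differed by 2.19, and Slc25a4, an exchanger of ATP and ADP, by 1.91. Cyc1, cytochrome c1 of complex III, differed by 0.64, Ndufab1, the acyl carrier subunit of complex I, by 0.49, and cytochrome c itself, Cycs, by 0.15 without passing. Of 43 assembly factors 12 were higher and 9 lower, with a median of 0.16. The complex III assembly factors Uqcc2 and Ttc19 marked the extremes, at 1.82 and -1.07. Equal library totals moved the median of the assembly factors to -0.43.

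Of 16 TCA cycle and pyruvate dehydrogenase genes 12 were higher and 1 lower, against 43.1% and 35.9% of all tested genes, with a median of 0.52. Fumarase, Fh1, differed by 0.96, and Pdha1, the E1 alpha subunit of pyruvate dehydrogenase, by -0.36. Of 15 regulators of mitochondrial biogenesis 14 were tested, 0 were higher and 10 lower, with a median of -0.46. Scaled to equal totals, all 14 were lower, against 56.3% of all tested genes, with a median of -1.01. Ppargc1a, the coactivator PGC-1α, was below the filter at 0.27 to 0.6 in spleen and 0.07 to 0.2 in tumor. Its relative Ppargc1b was lower by -0.97, Nrf1 by -0.35, the mitochondrial transcription factors Tfam and Tfb2m by -0.64 and -0.94, and the mitochondrial polymerase subunit Polg2 by -1.42. Gabpa and Yy1 differed by -0.06 and 0.03 and did not pass.

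Of all tested genes 43.1% were higher and 35.9% lower. Of 18 glycolysis genes 17 were higher, with a median of 2.88, and Slc16a3, a lactate exporter, had the largest difference, 4.67. The proteasome, another set of many small proteins, had 36 of 39 higher, 1 lower and a median of 0.83, with 1.74 for Psmd8 and -0.94 for the thymic Psmb11. The mitochondrial ribosome had 60 of 79 higher, 5 lower and a median of 0.49, from -0.48 for Mrpl24 to 1.78 for Mrpl17. The cytosolic ribosome had 63 of 82 higher, 2 lower and a median of 0.35, from -0.64 for Rpl5 to 2.44 for Rps27l. With equal library totals the medians were 2.25 for glycolysis, 0.43 for the OXPHOS subunits, 0.21 for the proteasome, -0.09 for the mitochondrial ribosome, -0.1 for the TCA cycle and -0.28 for the cytosolic ribosome.

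**Figure D5:**
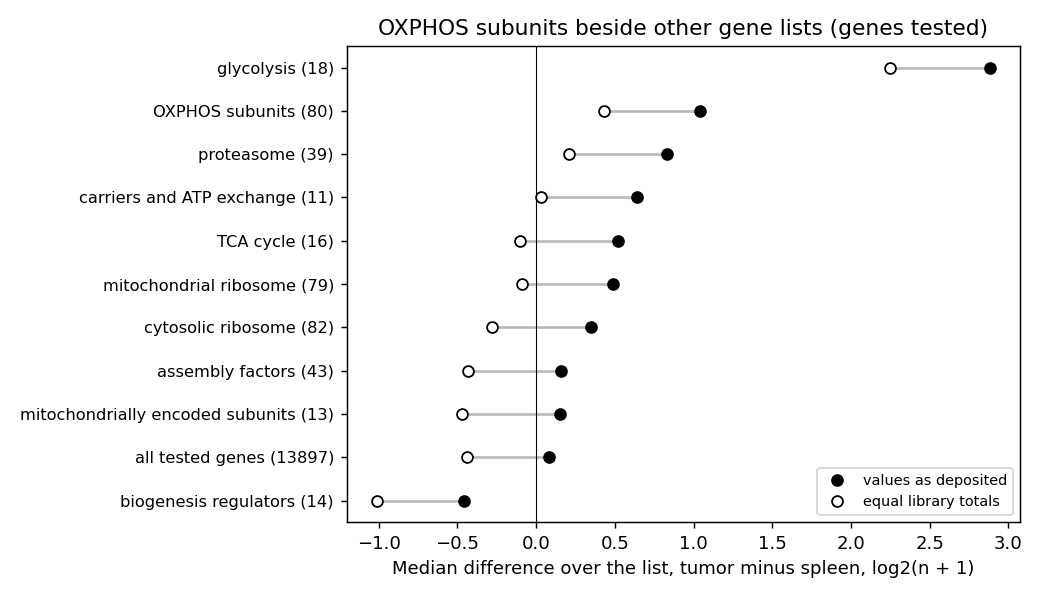
Median difference, tumor minus spleen in log2(n + 1), of the OXPHOS subunits, other gene lists and all tested genes, as deposited (filled) and with equal library totals (open), with the number of genes tested in brackets. The OXPHOS subunits, at 1.04 and 0.43, stand second to glycolysis, at 2.88 and 2.25, in both scalings, and the TCA cycle, both ribosomes, the assembly factors, the mitochondrially encoded subunits and all tested genes change sign.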

How the data were processed

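Tregs from spleens and MC38 tumors were sequenced in 11 libraries, which their labels sort by tissue and genotype. After ribosomal RNA depletion the authors ran kallisto on single-end reads against mm10, aggregated estimates by gene symbol in sleuth 0.30.0 and deposited log2(n + 1) values. Neither the kallisto version nor the scaling of n is given in the sources used, and no count model was fitted. Library totals of n lie far below the approximate sequencing depth the methods state, so the reads behind each value are not known and precision rests on the spread between libraries.

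The deposited log2 values were used as they stand. Genes with a mean of at least 0.5 were kept (13897 of 14604, 707 removed), and all 80 members passed. limma 3.58.1 in R 4.3.3 (trend option) set 5 tumor against 6 spleen libraries. A model with a mean per tissue and genotype gave the other contrasts. A gene was called where its Benjamini-Hochberg adjusted p over all tested genes was below 0.05. Paralog pairs were compared by exact permutation in scipy 1.17.1. Of 9 pairs planned, 6 had both genes listed. The fit was tested on simulated data.

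The members, gene lists and tests were chosen with earlier results of these data known. Genes were named by rule: the largest rise and fall per complex and list, the catalytic core, paralog pairs, members nearest 0 among those not passing, the smallest p of each genotype contrast, and the mitochondrially encoded subunits. Others, given as ranks within their complex or as roles, were named after their values were seen. One member is counted throughout but not reported here by name. Transcript lengths and positions came from GENCODE M21, which matched 79 members. Near copies (95% identity over 150 bases or more, BLAST 2.17.0) were found for 23 members, 3 of them with the copy listed. Exons of 24 members overlap a gene on the other strand and those of 5 a gene on the same strand, so their values are less certain. Alternatives changed the scaling, pseudocount, filter, variance model, correction, covariates, block and libraries.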

Additional observations from a re-analysis of the deposited data

Results flagged for a closer look

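In 116 sets of 5 or 6 libraries, over the named members, the mitochondrially encoded subunits, the complex medians and the paralog differences, 8 libraries stood apart from the rest of their tissue by Dixon's criterion, where chance gives about 5.8. In log2(n + 1), 4 of these were tumor wild-type replicate 2, which was lowest for Ndufv2 (6.02, the others 6.37 to 6.45), Uqcrfs1 (5.72, the others 6 to 6.08), Cox5a (7.19, the others 7.45 to 7.54) and Cox7a1 (2.99, the others 3.55 to 3.67). Tumor wild-type replicate 3 was highest for Cox4i1 (8.52, the others 8.36 to 8.39). Tumor wild-type replicate 1 was highest for mt-Nd4 (8.94, the others 8.3 to 8.43). Tumor knockout replicate 1 was lowest for Uqcrc1 (6.39, the others 6.56 to 6.59). Spleen wild-type replicate 1 was lowest for Cox7a2 (4.83, the others 5.19 to 5.29). No complex median and no paralog difference was among them, and no member passed the test of a tissue difference that depends on genotype.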

How the results depend on the processing

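The call of 77 members higher and 1 lower depended on the scaling and on the size of difference required. The members higher and lower in tumor were 65 and 6 with quantile normalization and 72 and 2 with median centring. Equal totals gave 57 and 5, the same without Gm12896 gave 60 and 9, and centring by transcript length gave 71 and 2. The last 2 settings were chosen after seeing the data. Over all tested genes, the shares higher and lower were 43.1% and 35.9% as deposited and 23.6% and 56.3% with equal totals. They were 24.6% and 57.2% without Gm12896 and 39.1% and 39.3% with length centring. For the other counts in this paragraph no share over all tested genes is given, so they describe the members alone. Requiring a difference of at least 1 left 47 and 0, and Bonferroni correction 64 and 1. Pseudocounts of 0.1 and 5, no filter, no variance trend, robust variance and a genotype covariate gave 77 and 1, and a filter at a mean of 2 gave 75 and 1 of the members left. In the same order of scalings, the lower calls were 5, 2, 3, 6 and 2 within wild-type mice and 3, 2, 3, 3 and 2 within knockout mice, where equal totals left 45 higher. Within genotypes, Bonferroni correction left 42 higher and 0 lower in wild-type and 31 and 0 in knockout mice. The members' median was 0.64, 0.82, 0.43, 0.44 and 0.69 in these scalings, and relative to all tested genes it was 0.8 with quantile normalization and 0.7 with length centring. Without each library in turn, 76 to 78 members were higher and 1 lower, the median was 1.01 to 1.07, and within wild-type mice 1 to 2 were lower, 2 of them without spleen wild-type replicate 1.

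With equal totals, the members that changed sign were Ndufa10 (-0.22, passing as lower), Ndufa4 (-0.23), Uqcrc2 (-0.16), Uqcrh (-0.08), Ndufs3 (-0.19), Ndufs7 (-0.26), Ndufv1 (-0.22), Sdha (-0.46, passing as lower), Uqcrc1 (-0.17), Atp5a1 (-0.014) and Cox7a2l (-0.35, passing as lower). Without Gm12896 in the totals the last 7 were -0.19, -0.25, -0.21, -0.45, -0.16, -0.0097 and -0.35, and all but Atp5a1 passed as lower. Quantile normalization gave Sdha -0.36, Atp5a1 -0.2, Uqcrh -0.23 and Cox7a2l -0.47, all passing as lower, and Atp5b -0.043, median centring gave Sdha -0.052, and length centring gave Ndufs7 -0.071 and Cox7a2l -0.05. Of 33 named members, 19 kept direction and call in all 25 alternatives.

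Of the paralog pairs, Cox7a2l minus Cox7a2 was -1.33 to -1.15 without each library. Without tumor knockout replicate 1 or 2 or tumor wild-type replicate 1 or 3 its adjusted exact permutation p was 0.0571. This is the smallest 1 pair can reach by itself with a tumor library left out, so the loss of its call there tells nothing about the difference. Cox4i2 minus Cox4i1 passed at 1.65 with a pseudocount of 0.1 and at 0.81 with equal totals, reversed to -0.41 with 5, and was 0.36 to 0.63 without each library, passing without tumor wild-type replicate 2. With a pseudocount of 5, Cox6a2 minus Cox6a1 passed at -0.92, Cox7a1 minus Cox7a2 at -0.61 and Atp5g3 minus Atp5g2 at -0.28. Without each library, Cox6a2 minus Cox6a1 was -0.77 to -0.23 and Atp5g3 minus Atp5g2 -0.39 to -0.24. The former passed without tumor wild-type replicate 2 and the latter without spleen wild-type replicate 1.

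Same-numbered libraries did not deviate together, with correlations of -0.128 to 0.038 over 5 pairs, and 1 of 5 tumor libraries correlated best with the spleen library of its own number. With the replicate number as a block, 76 members were higher and 1 lower, and Cox7a2l lost its call at 0.26. In sign flips of the 5 same-numbered pairs, where the smallest p is 0.0625, Cox7a2l minus Cox7a2 was -1.26 and did not pass. The block changed no other call on the named members and paralog pairs, and within genotypes it left 76 higher in wild type and 71 in knockout.

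In the other lists, calls higher and lower with equal totals were 0 and 8 for the mitochondrially encoded subunits, 2 and 28 for assembly factors, 3 and 2 for carriers, 1 and 6 for the TCA cycle, 18 and 26 for the mitochondrial and 4 and 47 for the cytosolic ribosome, 19 and 6 for the proteasome, with 1 lower in glycolysis. Over all tested genes 23.6% were then higher and 56.3% lower. Quantile normalization gave 0 and 9 for the mitochondrially encoded subunits, 7 and 17 for assembly factors, 5 and 2 for carriers, 3 and 63 for the cytosolic ribosome, and 3, 13, 3 and 1 lower for the TCA cycle, mitochondrial ribosome, proteasome and glycolysis. All tested genes moved down too in that setting, with a median of -0.16 and 7824 of 13897 below 0. Median centring gave 17 lower assembly factors, 1 carrier, 3 TCA cycle genes, 11 mitochondrial ribosome genes and 3 proteasome genes, and 33 higher and 5 lower for the cytosolic ribosome. The median over all tested genes was then -0.14. For quantile normalization and median centring no share called over all tested genes is given, so these counts describe the lists alone. The causes of these changes were not tested beyond the scalings themselves.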
